A study of Mus musculus with 7 samples.

Results

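The Gimap genes encode the GTPases of immunity-associated proteins, a family of 8 mouse genes packed side by side on chromosome 6. All 8 (Gimap1, Gimap3, Gimap4, Gimap5, Gimap6, Gimap7, Gimap8 and Gimap9) were found by symbol among the 24421 gene symbols of an RNA-seq count table of LSK cells (Lin-Sca1+Kit+), the bone marrow population in which stem cells and early multipotent progenitors reside. The family was chosen by its chromosomal neighbourhood after Gimap1 had been seen to be lower in Ddx41+/- cells, so the genotype difference of each member is given below as a description. The fit over all genes included the members, and what it called among them is given for completeness, is no independent test and supports nothing. All 8 members passed the filter on low counts, along with 13340 genes in total.

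The question behind the samples was how the loss of one copy of Ddx41, a DEAD-box RNA helicase gene, alters the stem and progenitor compartment under the stress of transplantation. Bone marrow from Rosa-CreERT2 donors that were wild-type for Ddx41 or heterozygous for a floxed Ddx41 allele was given to irradiated BoyJ recipients, which carry a different CD45 allele. The recipients of both genotypes were given tamoxifen (1 mg a day, 5 days in a row, 2 rounds), and the LSK sort took place 8 weeks after transplant. There were 4 samples of Ddx41+/+, numbered 1 to 4, and 3 of Ddx41+/-, numbered 6 to 8. Rosa-CreERT2 is active in all cell types once tamoxifen is given, and both groups carried it. The ages of the mice and a gate for donor cells are not given in the labels, so LSK cells that survived in the host cannot be set apart from donor cells. Whether each sample came from 1 mouse is not stated either, and p-values measure the spread between these samples.

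Totals ran from 32234499 to 43751290 counts per sample. Expression is given as CPM, the standard rate of a gene's counts over the total of its library, with library totals adjusted by TMM scaling. Ddx41 itself lay at 92.8 to 106.6 CPM in Ddx41+/+ and 64.4 to 69.5 CPM in Ddx41+/- (log2 fold change -0.54, SE 0.071, adjusted p = 0.0052, edgeR), which fits the labels. The LSK markers Kit (427 to 505 CPM) and Cd34 (647 to 830 CPM) were high in all 7 samples, and Ly6a, which encodes Sca1, was present at 13.3 to 30.5 CPM.

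GIMAP proteins bind guanine nucleotides through a domain called AIG1, and several sit on the membranes of the endoplasmic reticulum, mitochondria, Golgi or lysosomes. They are known above all from resting T and B cells, where several members are needed for survival: Gimap5 loss causes lymphopenia in rats and mice and also disturbs hematopoietic stem cells, and Gimap1 is required for mature lymphocytes. Some members form pairs on membranes, in which Gimap7 can speed the GTP hydrolysis of its partner, and Gimap6 takes part in autophagy.

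A feature that all 8 genes share is the P-loop, the stretch that wraps around the phosphates of GTP. A search of the coding sequences for codons giving glycine, 4 residues of any kind, glycine, lysine, and serine or threonine found it once in 7 members and 3 times in Gimap8, whose coding sequence of 2064 bases is more than double that of any other (873 to 984 bases). The coding stretches are shown 5′ to 3′ from the GENCODE transcripts of GRCm38, with the codons of the P-loop in capitals.
Gimap1: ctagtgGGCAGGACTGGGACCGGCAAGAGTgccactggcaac
Gimap3: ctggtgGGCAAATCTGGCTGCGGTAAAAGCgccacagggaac
Gimap4: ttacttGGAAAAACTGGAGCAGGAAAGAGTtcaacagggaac
Gimap5: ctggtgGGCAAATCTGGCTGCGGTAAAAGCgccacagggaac
Gimap6: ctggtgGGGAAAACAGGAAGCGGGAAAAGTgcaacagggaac
Gimap7: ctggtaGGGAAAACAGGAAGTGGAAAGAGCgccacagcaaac
Gimap8, first: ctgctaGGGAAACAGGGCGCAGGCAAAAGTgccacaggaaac
Gimap8, second: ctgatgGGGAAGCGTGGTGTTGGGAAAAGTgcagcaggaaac
Gimap8, last: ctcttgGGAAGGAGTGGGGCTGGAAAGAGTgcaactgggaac
Gimap9: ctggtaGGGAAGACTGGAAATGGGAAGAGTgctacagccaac
The Gimap3 and Gimap5 lines are the same letter for letter. Over their coding sequences these members were 90.4% identical across 895 aligned bases, whereas the other pairs were 55.7% to 66.6% identical.

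That likeness bears on the counts. Of the 75-base words in its transcripts (75 bases stand in for a read, whose handling when shared is not given in the sources used here), Gimap3 shared 3.32% with Gimap5, and Gimap5 shared 1.97% with Gimap3. No other pair of members shared a word. Gimap1 had a different overlap: 30.5% of its words also lay in Gimap1os, an antisense transcript annotated at 48738346-48741444 on the minus strand, and 3.95% in Gm28053, a readthrough transcript that joins Gimap7, Gimap1 and Gimap5. Gimap5 shared 1.90% and Gimap7 0.31% of their words with Gm28053. With Gm10310, which also shared words with Gimap1, 33.2% of the words of Gimap1 lay in some other gene. Neither Gimap1os nor Gm28053 has a row in the counts used here. Because the use of strand in counting is not stated, sense and antisense reads over the stretch of Gimap1 shared with Gimap1os cannot be told apart.

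The cluster spans chr6:48647234-48770851 of GRCm38 (mm10), 123.6 kb, in the order Gimap8, Gimap9, Gimap4, Gimap6, Gimap7, Gimap1, Gimap5 and Gimap3. Gimap6 and Gimap3 are transcribed from the minus strand and the others from the plus strand. Gimap1 (chr6:48739054-48743795) and Gimap5 (chr6:48746197-48754210) are direct neighbours on the same strand.

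**Figure D1:**
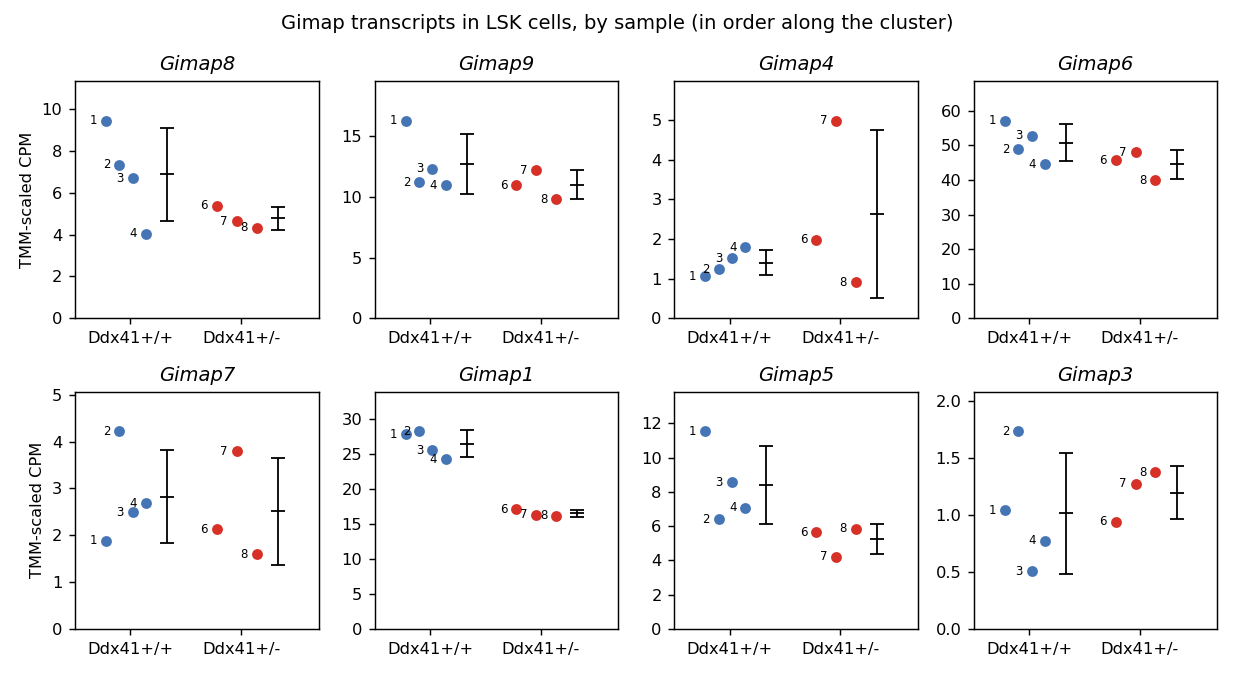
Each panel plots one Gimap gene as TMM-scaled CPM on a linear axis from 0, with a point for every sample (replicate number beside it) and the mean ± SD to the right. Gimap1 and Gimap5 are the panels where no Ddx41+/- point (red) reaches the lowest Ddx41+/+ point (blue), and the single high red point for Gimap4 is replicate 7.

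Gimap1, which is required for the survival of mature lymphocytes, had the clearest separation. Its levels were 27.8, 28.2, 25.5 and 24.3 CPM in Ddx41+/+ replicates 1 to 4 and 17.1, 16.3 and 16.2 CPM in Ddx41+/- replicates 6 to 8. The groups did not overlap, and the spread within each was small (26.4 ± 1.89 against 16.5 ± 0.510 CPM, SD). These levels rested on 550 to 1151 counts per sample and gave a log2 fold change of -0.68 (SE 0.10), so that Ddx41+/- cells held 62.5% of the Ddx41+/+ level. The adjusted p of 0.0121 in the edgeR fit is the value that led to the choice of the family. Without Ddx41+/+ replicate 2 it was 0.0628 and without Ddx41+/- replicate 8 it was 0.0594, with log2 fold changes of -0.64 and -0.66.

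Gimap5, which guards lymphocyte and stem cell survival, lay at 11.5, 6.42, 8.56 and 7.07 CPM in Ddx41+/+ and at 5.64, 4.21 and 5.84 CPM in Ddx41+/-. The genotypes did not overlap here either, although the gap between the lowest Ddx41+/+ sample and the highest Ddx41+/- sample was narrow. Its fitted log2 fold change of -0.68 was the same as that of Gimap1, with an SE of 0.22 that was more than double, and Ddx41+/- cells were at 62.3% of Ddx41+/+. Ddx41+/+ replicate 1 was the high sample, and without it the log2 fold change was -0.49.

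Gimap8, the member with 3 GTPase domains, was at 9.45, 7.35, 6.70 and 4.03 CPM in Ddx41+/+ and at 5.38, 4.63 and 4.33 CPM in Ddx41+/-. Ddx41+/+ replicates 1 to 3 were above all Ddx41+/- samples, and replicate 4 was below them all. The log2 fold change was -0.53 (SE 0.24) and reached -0.71 when that sample was left out, while leaving out Ddx41+/+ replicate 1, the highest, gave -0.33.

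Gimap6, the autophagy-linked member, was the most abundant of the family by counts, at 57.2, 48.8, 52.8 and 44.6 CPM in Ddx41+/+ against 45.7, 48.1 and 39.9 CPM in Ddx41+/-. The ranges overlapped, with a log2 fold change of -0.19 (SE 0.095). Gimap9 was similar in pattern, at 16.3, 11.2, 12.3 and 11.0 CPM in Ddx41+/+ and 11.0, 12.2 and 9.83 CPM in Ddx41+/-, with a log2 fold change of -0.21 (SE 0.16). In both genes Ddx41+/+ replicate 1 was the highest of all samples and Ddx41+/- replicate 8 the lowest.

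The remaining members were low, and their samples scattered widely. Gimap7, the partner that stimulates GTP hydrolysis, was at 1.89, 4.22, 2.50 and 2.68 CPM in Ddx41+/+ and at 2.13, 3.80 and 1.60 CPM in Ddx41+/-, a log2 fold change of -0.18 (SE 0.34). Its sign was not stable, since it became 0.092 without Ddx41+/+ replicate 2 and 0.068 without Ddx41+/- replicate 8. Gimap3, the near copy of Gimap5, was at 1.04, 1.73, 0.505 and 0.774 CPM in Ddx41+/+ and at 0.939, 1.28 and 1.38 CPM in Ddx41+/-. With 16 to 67 counts per sample it was the least well measured (counting error alone was 25% in the lowest sample), and its log2 fold change was 0.23 (SE 0.47).

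Gimap4, which acts in the maturation and death of T cells, was at 1.06, 1.24, 1.52 and 1.80 CPM in Ddx41+/+ and at 1.98, 4.98 and 0.902 CPM in Ddx41+/-. The highest and the lowest of all 7 samples were thus both Ddx41+/-. Its positive log2 fold change of 0.89 (SE 0.46) rested on replicate 7 with 168 counts, and without that sample it was 0.037. Replicate 7 also had the highest level of Jchain, the joining chain of secreted antibodies (346 CPM against 26.0 to 128 CPM in the other samples), and the part of antibody-secreting cells in the Gimap4 value was not tested.

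**Figure D2:**
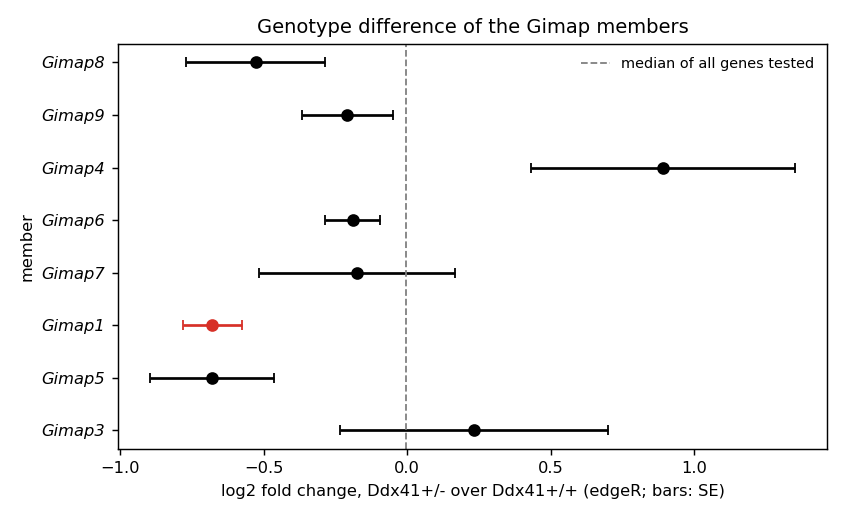
Log2 fold change of Ddx41+/- over Ddx41+/+ (horizontal axis, points with SE bars from edgeR) for each Gimap member in order along the cluster, with a dashed line at the median of all genes tested. Gimap1 (red, -0.68) has the shortest bar relative to its distance from the line, and Gimap4 (0.89) and Gimap3 (0.23) lie on the other side of it.

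Across the family, 6 of 8 members had a lower mean in Ddx41+/- and 2 had a higher one, and the median log2 fold change was -0.20 beside -0.0048 over all genes tested. Gimap1 was the 1 member of 8 that passed an adjusted p of 0.05 in edgeR, beside 0.217% of all genes tested in either direction and 0.0975% in the lower direction. DESeq2 and limma-voom each called 1 member as well, beside 147 of 16731 and 10 of 13340 genes tested. At an unadjusted p under 0.05 the number was 3 (Gimap1, Gimap5 and Gimap8), all lower in Ddx41+/-. Beside it stood 10.6% of all genes in either direction and 4.93% in the lower direction. Gimap1 and Gimap5, 2 of the 8 members, had no overlap between genotypes with Ddx41+/- lower, which held for 5.21% of all genes. Since the contrast itself led to the family, nothing is read from these shares.

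Summed over the 8 genes, Gimap transcripts came to 126.3, 109.2, 110.3 and 96.2 CPM in Ddx41+/+ and to 89.9, 95.5 and 79.97 CPM in Ddx41+/-. The highest Ddx41+/- sample thus lay just below the lowest Ddx41+/+ sample, and the mean was 80.1% of that in Ddx41+/+ (88.5 ± 7.87 against 110.5 ± 12.3 CPM, SD). In bulk RNA, fewer cells that express the family and less Gimap RNA per cell cannot be told apart.

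The composition of this sum also differed. Gimap1 made up 22.0% to 25.8% of Gimap counts in Ddx41+/+ and 17.1% to 20.2% in Ddx41+/-, whereas Gimap6 made up 44.7% to 47.8% and 49.9% to 50.9%. Set against Gimap6 within each library, which removes any scaling of libraries, Gimap1 had 48.7, 57.8, 48.3 and 54.4 counts per 100 Gimap6 counts in Ddx41+/+ and 37.4, 33.9 and 40.5 in Ddx41+/-. The same ratio for Gimap9 was 24.9 ± 2.53 in Ddx41+/+ and 24.7 ± 0.716 in Ddx41+/- (SD). Gimap1 led to the choice of the family, so its ratio and its share are descriptions too. The ratio of Gimap9 to Gimap6 differed by less than the spread of samples. For Gimap5 the ratio was 16.4 ± 2.89 against 11.9 ± 2.96 counts per 100 Gimap6 counts, with overlapping samples.

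Samples of one genotype did not share one order over the family. Within Ddx41+/+, replicate 1 was the highest for 4 members (Gimap5, Gimap6, Gimap8 and Gimap9), replicate 2 for 3 (Gimap1, Gimap3 and Gimap7), and replicate 4 was the lowest for 4 (Gimap1, Gimap6, Gimap8 and Gimap9). Within Ddx41+/-, replicate 7 was the highest for Gimap4, Gimap6, Gimap7 and Gimap9, and replicate 8 was the lowest for 6 members. The coefficient of variation over the Ddx41+/+ samples was 7.15% for Gimap1, 10.6% for Gimap6 and 52.1% for Gimap3.

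**Figure D3:**
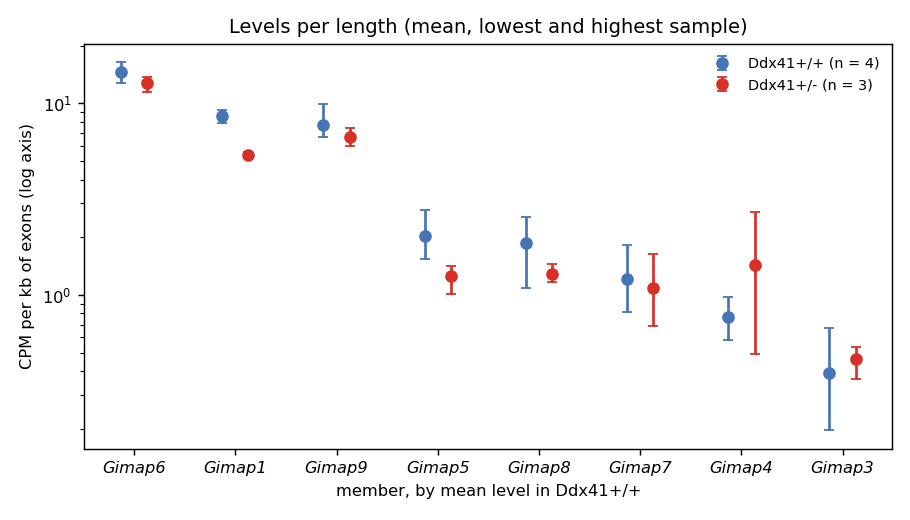
Level of each Gimap gene per length (CPM per kb of exons, log axis), as the mean with the lowest and the highest sample, for Ddx41+/+ (blue, 4 samples) and Ddx41+/- (red, 3 samples). Gimap6 leads in both genotypes, Gimap1, Gimap9 and the rest follow in Ddx41+/+, and in Ddx41+/- Gimap1 lies below Gimap9.

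To compare the genes with each other, CPM was divided by the length of all annotated exons. In Ddx41+/+ the mean level was 14.5 CPM per kb for Gimap6, 8.61 for Gimap1, 7.73 for Gimap9, 2.02 for Gimap5, 1.86 for Gimap8, 1.21 for Gimap7, 0.765 for Gimap4 and 0.393 for Gimap3. Of the neighbours in this order, Gimap6 and Gimap1 did not overlap, nor did Gimap9 and Gimap5, and all other neighbours overlapped. LSK cells thus held a group of Gimap6, Gimap1 and Gimap9 well above the other members. In Ddx41+/-, Gimap9 (5.99 to 7.44 CPM per kb) stood above Gimap1 (5.26 to 5.57 CPM per kb), while in Ddx41+/+ these genes overlapped (6.68 to 9.92 and 7.89 to 9.18 CPM per kb).

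The upstream sequences of Gimap1 and Gimap5 are shown because these are the adjacent members whose genotypes did not overlap. Each is the 250 bases before the RefSeq start on GRCm38.p6, plus strand, with any match to the letters searched in capitals. On both strands the search was for AGATAA of GATA factors, TGTGGT of RUNX factors, GGAAGT of ETS factors, the TATA box as TATAAA, and the IRF pattern of GAAA followed by another such group after 2 bases of any kind.
Gimap1, chr6:48738797-48739046: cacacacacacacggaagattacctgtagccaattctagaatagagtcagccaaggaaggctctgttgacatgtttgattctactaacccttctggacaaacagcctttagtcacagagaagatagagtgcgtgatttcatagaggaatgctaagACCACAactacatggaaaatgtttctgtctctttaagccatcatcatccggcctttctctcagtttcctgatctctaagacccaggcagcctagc
Gimap5, chr6:48745947-48746196: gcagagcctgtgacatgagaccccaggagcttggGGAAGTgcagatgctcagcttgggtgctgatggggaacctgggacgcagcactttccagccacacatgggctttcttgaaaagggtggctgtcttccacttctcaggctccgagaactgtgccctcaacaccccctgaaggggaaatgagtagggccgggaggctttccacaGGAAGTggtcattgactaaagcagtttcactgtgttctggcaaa
Gimap1 had 1 RUNX match on the minus strand, 95 bases before the start, and Gimap5 had 2 ETS matches, 216 and 44 bases before it. Neither motif was shared between the pair. Among the other members, Gimap4 and Gimap7 also held the RUNX letters, Gimap6 held the ETS and the TATA letters, and Gimap3, Gimap8 and Gimap9 held none of those searched. Of 32851 mouse upstream sequences of the same length, 14.05% held the RUNX letters, 19.74% ETS, 12.37% TATA, 9.99% GATA and 2.98% IRF. A match describes letters and not a bound site.

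The genes around the cluster were next examined, as none of them entered the choice of the family. Of 36 other genes of the count table within 1 Mb of the cluster, 27 were tested and edgeR called 0 of them, beside 0.217% of all genes. At an unadjusted p under 0.05 there were 6 of 27 (1 higher and 5 lower in Ddx41+/-), beside 10.6% of all genes tested (5.7% higher and 4.93% lower). The 5 lower ones lay on both sides of the cluster. Upstream they were Gm5111 (log2 fold change -0.58, SE 0.26), Repin1 (-0.31, SE 0.087) and Zfp775 (-0.46, SE 0.18). These began at -149.6 to -137.0 kb from the start of Gimap1, and Repin1 and Zfp775 did not overlap between genotypes. Of all genes tested, 5.21% had no overlap with Ddx41+/- lower. Downstream they were Tmem176a (-0.23, SE 0.086) and Tmem176b. The higher one was Pdia4 (0.27, SE 0.073), at -942.9 kb. The median log2 fold change of the 27 tested neighbours was -0.025. On the upstream side the nearest gene, AI854703, 13.5 kb away, had a log2 fold change of -0.067 (SE 0.24). On the downstream side Tmem176b, a membrane protein gene of myeloid and dendritic cells 63.0 kb away, had 173.7, 179.2, 180.2 and 143.8 CPM in Ddx41+/+ and 138.8, 141.0 and 129.8 CPM in Ddx41+/-. Its groups did not overlap, and it had the smallest p of the neighbours (log2 fold change -0.31, SE 0.078, edgeR adjusted p = 0.132). It passed the threshold in DESeq2, which called 1 neighbour, without the filter on low counts and without Ddx41+/+ replicate 4, whereas limma-voom called 0. Over the whole table DESeq2 called 147 of the 16731 genes it tested.

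**Figure D4:**
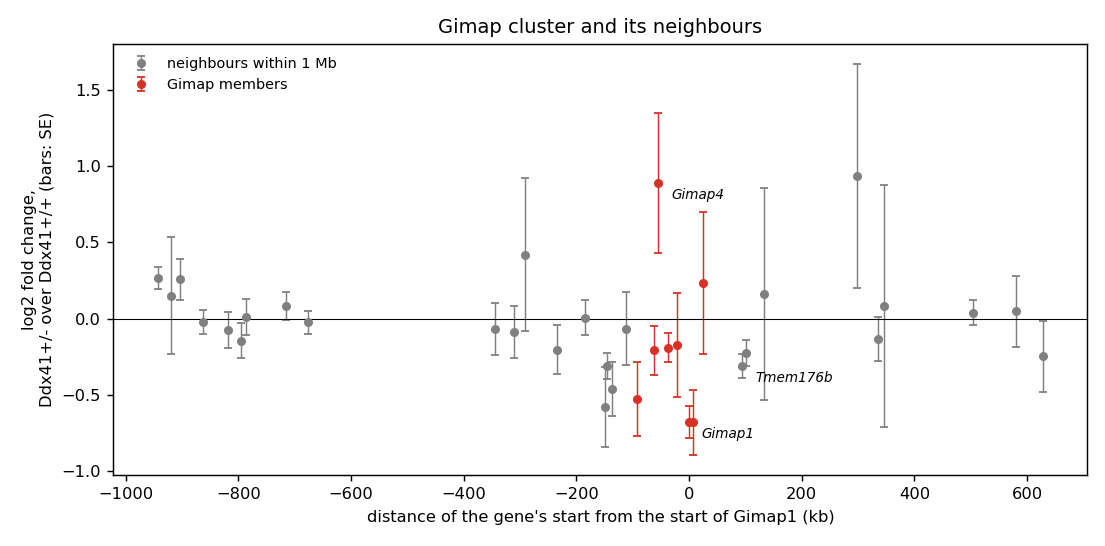
Log2 fold change of Ddx41+/- over Ddx41+/+ with SE bars (vertical axis) against the distance of each gene's start from the start of Gimap1 in kb (horizontal axis), for the Gimap members (red) and the 27 tested neighbours (grey). The paired red points at the bottom are Gimap1 and Gimap5 (both -0.68), and Tmem176b lies at -0.31 to their right.

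Other genes with a profile like that of Gimap1 were sought across 11770 genes with a mean of at least 1 CPM, by the root mean square difference of log2 CPM after each gene's own mean over the 7 samples was removed. The nearest named genes were Ctla2b (0.081), Cdk14 (0.100), Gprc5b (0.107), Cd96 (0.1102) and Gyltl1b (0.116). These genes were picked for this likeness, so their genotype difference (log2 fold changes of -0.54 to -0.76) follows from the choice. Other family members stood much further down, Gimap6 at rank 667, Gimap5 at 813, Gimap9 at 1522, Gimap8 at 1838 and Gimap7, Gimap3 and Gimap4 near the end at 10570, 11386 and 11679. The measure takes in all scatter between samples, so a rank does not stand for the size of the genotype difference. Gimap5, with a log2 fold change of -0.68, ranked behind Gimap6 with -0.19. The 7 samples behind this ranking share one genotype split, and the ranking is a description.

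Genes that work with GIMAP proteins or encode other immune GTPases were then described. Genes of the BCL2 family control mitochondrial cell death and include binding partners of some GIMAP proteins. Of 10 such genes, edgeR called 0, beside 0.217% of all genes tested, and DESeq2 and limma-voom called 0. At an unadjusted p under 0.05 the number was also 0, beside 10.6% of all genes tested. The median log2 fold change of the list was 0.037. The smallest p belonged to Bid, which links death receptors to mitochondria (log2 fold change 0.12, SE 0.061). The ATG8 autophagy system includes the Gimap6 partner Gabarapl2. Of 10 genes of this system, edgeR called 0, beside 0.217% of all genes tested, and DESeq2 and limma-voom called 0. At an unadjusted p under 0.05 there was 1 lower, beside 4.93% of all genes tested. It was Gabarapl1, an ATG8 protein (log2 fold change -0.16, SE 0.071). Gabarapl2 itself was at -0.18 (SE 0.12), and the median of the list was -0.082.

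The IRG and GBP genes, the interferon-inducible GTPases of the mouse, are other large families of immune GTPases. Of 17 genes, 14 were tested and edgeR called 0, beside 0.217% of all genes tested, and DESeq2 and limma-voom called 0. At an unadjusted p under 0.05, 3 were lower, beside 4.93% of all genes tested. The median log2 fold change of these genes was -0.11. The one with the smallest p was Iigp1, an effector against vacuolar pathogens, at 12.4, 10.5, 14.0 and 10.6 CPM in Ddx41+/+ and 8.86, 7.27 and 8.05 CPM in Ddx41+/- (log2 fold change -0.56, SE 0.16, adjusted p = 0.195). Its groups did not overlap, which held in this direction for 5.21% of all genes tested.

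**Figure D5:**
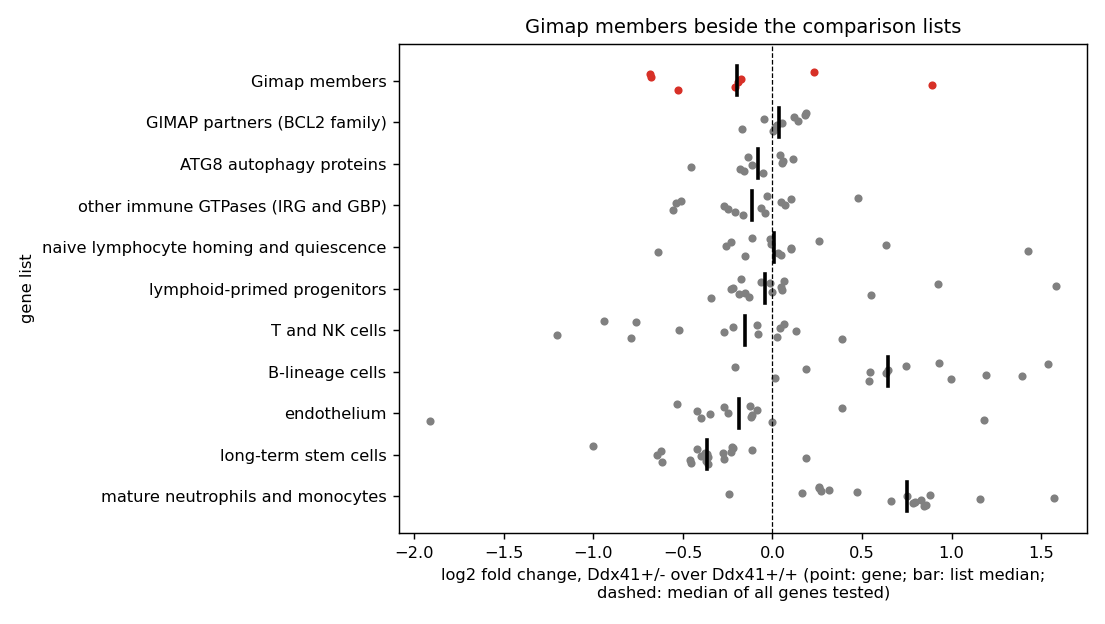
Log2 fold change of Ddx41+/- over Ddx41+/+ (horizontal axis) for every tested gene (points) of the Gimap family and of 10 comparison lists (vertical axis), with each list's median as a black bar and the median of all genes tested as a dashed line. The Gimap median (-0.20) lies between those of the stem cell list (-0.37) and the neutrophil and monocyte list (0.75), and single members spread from -0.68 to 0.89.

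Since Gimap genes are best known from resting lymphocytes, the lists of lymphocyte genes were read beside the family. Of 14 genes of naive lymphocyte homing and quiescence, edgeR called 0, beside 0.217% of all genes tested, and DESeq2 and limma-voom called 0. At an unadjusted p under 0.05 there were 3 (1 higher and 2 lower), beside 10.6% of all genes tested. The median log2 fold change of these genes was 0.011. S1pr1, the receptor that lets lymphocytes leave tissues, had the smallest p (3.84 to 5.49 CPM in Ddx41+/+, 2.44 to 3.49 CPM in Ddx41+/-, log2 fold change -0.64, SE 0.23, adjusted p = 0.326). Of 16 genes of lymphoid-primed progenitors, 6 had a fitted log2 fold change above 0 and 10 below it. At an unadjusted p under 0.05 there were 4 (1 higher and 3 lower), beside 10.6% of all genes tested. EdgeR called 1, beside 0.217% of all genes tested. DESeq2 called 1, beside 147 of the 16731 genes it tested, and limma-voom called 0. The gene called by edgeR was Blnk, an adaptor of B cell receptor signaling. It lay at 4.81 to 5.25 CPM in Ddx41+/+ and rose, to 8.27 to 11.5 CPM, in Ddx41+/- (log2 fold change 0.92, SE 0.17, adjusted p = 0.0401). Blnk lost its call in each of the 7 fits that left out a sample, and the median of the list was -0.039.

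Mature cells that should lie outside the sort were also examined. The T cell genes Cd3d, Cd3e and Cd3g, which encode parts of the T cell receptor complex, were at or near 0 in all samples (at most 0.386 CPM). Cd8a (at most 0.695 CPM) and Ncr1 (at most 0.233 CPM) were also low. Other markers of these cells were present, with Lck at 9.55 to 13.1 CPM and Cd4 at 0.691 to 2.12 CPM. Of the 25 T and NK cell genes 22 were among the symbols and 14 were tested. EdgeR called 0, beside 0.217% of all genes tested, and DESeq2 and limma-voom called 0. At an unadjusted p under 0.05, 2 were lower, beside 4.93% of all genes tested. The median log2 fold change of these genes was -0.15. Lat, an adaptor of T cell receptor signaling, had the smallest p (log2 fold change -0.52, SE 0.14, adjusted p = 0.180). Their summed level was 276 to 324 CPM in Ddx41+/+ and 291 to 325 CPM in Ddx41+/-, most of it Nkg7 (221 to 281 CPM), a granule gene of NK and cytotoxic T cells.

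Of 13 tested B-lineage genes, edgeR called 0, beside 0.217% of all genes tested, and DESeq2 and limma-voom called 0. At an unadjusted p under 0.05, 4 were higher in Ddx41+/-, beside 5.7% of all genes tested. The median log2 fold change of these genes was 0.64. Their sum was 99.4 to 198 CPM in Ddx41+/+ and 104 to 434 CPM in Ddx41+/-, and most of the highest value, that of Ddx41+/- replicate 7, was Jchain. Without Jchain the sum was 48.5 to 70.3 CPM in Ddx41+/+ and 89.2, 88.3 and 62.9 CPM in Ddx41+/- replicates 6 to 8. Fcrla, an intracellular Fc receptor-like protein of B cells, had the smallest p (log2 fold change 1.54, SE 0.56, adjusted p = 0.336). It lay at 0.580 to 1.45 CPM in Ddx41+/+ and at 1.52, 5.46 and 0.834 CPM in Ddx41+/- replicates 6 to 8. The genotypes thus overlapped, and replicate 7 was again the high sample. Endothelial cells express Gimap genes as well. Of 14 tested endothelial genes, edgeR called 0, beside 0.217% of all genes tested, and DESeq2 and limma-voom called 0. At an unadjusted p under 0.05, 4 were lower, beside 4.93% of all genes tested. The median log2 fold change was -0.19, and the sum was 422 to 501 CPM in Ddx41+/+ against 422 to 458 CPM in Ddx41+/-. Among endothelial markers, Cdh5 was below 1 CPM in all samples and Kdr was at 0.121 to 1.08 CPM. Emcn (4.70 to 9.21 CPM) and Pecam1 (133 to 156 CPM) were present. Egfl7, a secreted endothelial factor also found in stem cells, had the smallest p (log2 fold change -0.25, SE 0.086, adjusted p = 0.314).

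Summed transcripts of stem cell genes and of mature myeloid genes, like Gimap1, did not overlap between genotypes. The sum of the BCL2 family list did not overlap either (754.5 to 785.4 CPM in Ddx41+/+ and 788.6 to 796.7 CPM in Ddx41+/-). Of 20 long-term stem cell genes, 19 had a fitted log2 fold change below 0, the median was -0.37, 10 were lower at an unadjusted p under 0.05 (4.93% of all genes tested) and 1 was called lower (0.0975% of all genes tested). The called gene was Txnip, a regulator of redox state and glucose uptake, which lay at 224 to 244 CPM in Ddx41+/+ and fell, to 157 to 194 CPM, in Ddx41+/- (log2 fold change -0.38, SE 0.073, adjusted p = 0.0479). This call was lost in 6 of the 7 fits without a sample, and was kept without Ddx41+/- replicate 7. The summed level of the list was 741 to 917 CPM in Ddx41+/+ and 641 to 690 CPM in Ddx41+/-. Its highest sample, Ddx41+/+ replicate 1, was also the highest for the Gimap sum and for the lymphoid-primed and endothelial sums. The stem cell and endothelial lists have some genes in common, so their sums and medians are not independent.

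Of 17 genes of mature neutrophils and monocytes, 15 were higher in Ddx41+/- at an unadjusted p under 0.05 (5.7% of all genes tested), with a median of 0.75. Mmp9, a neutrophil granule protease, lay at 4.50 to 7.90 CPM in Ddx41+/+ and rose, to 12.4 to 20.7 CPM, in Ddx41+/- (log2 fold change 1.57, SE 0.21, adjusted p = 0.00677) and was the 1 gene called higher (0.12% of all genes tested). Their summed level was 1353 to 1975 CPM in Ddx41+/+ and 2044 to 3122 CPM in Ddx41+/-. The part of fewer stem cells or more myeloid RNA in the Gimap1 level was not tested.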

How the data were processed

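RNA-seq was measured on LSK cells of 4 Ddx41+/+ and 3 Ddx41+/- samples. Per the submitters' processing notes the tools were FastQC 0.11.7, HISAT2 2.0.5 and featureCounts 1.5.2 with the mm10 build, and the authors deposited unnormalized counts, 1 row per gene symbol. Handling of shared reads, use of strand and the annotation are not given in the sources used here. The labels name a stranded TruSeq kit and the study's methods a TruSeq v2 poly(A) kit. A Ddx41+/- library numbered 5 was removed before deposit, per the name of the counts, and was not analysed here. All 7 sample columns were used, leaving 0 unused.

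Genes were tested with edgeR 4.0.16 in R 4.3.3 (TMM scaling, filterByExpr, robust quasi-likelihood test, Benjamini-Hochberg adjustment over all genes tested, threshold 0.05). The filter kept 13340 of 24421 symbols. DESeq2 1.42.0, limma-voom (limma 3.58.1), other scalings, no filter, no robust estimation and fits without each sample were alternatives. Scripts were tested on simulated data. Gene positions, exon lengths and coding sequences came from GENCODE M21 (GRCm38), and upstream sequences from RefSeq. The members and all 10 lists were chosen with earlier results of these data known. Named were all members, Ddx41, the nearest gene on each side of the cluster, the 5 genes with the profile nearest to Gimap1 (predicted genes left out), and of each list and the neighbours the genes called, or else the one with the smallest p. Gabarapl2, Kit, Cd34, Ly6a, Jchain, Nkg7, Lck, Cd4, Cd8a, Ncr1, Cdh5, Kdr, Emcn, Pecam1 and the Cd3 genes were named as partners or markers. Neighbours with an unadjusted p under 0.05 were named too. Counts below about 100 per sample, as for Gimap3, leave counting errors of 10% or more, and counting error is taken as independent reads.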

Additional observations from a re-analysis of the deposited data

How the results depend on the processing

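The number of genes called over the whole table moved most, from 29 to 147 with DESeq2, 91 with no filter on low counts, 15 with library totals only, 14 without robust estimation and 10 with limma-voom, and it was 7 to 41 when single samples were left out. The number of Gimap members called was 0 to 1 in those fits, the call being lost without Ddx41+/+ replicate 2 or Ddx41+/- replicate 8, and 1 in every other alternative. The log2 fold change of Gimap1 kept its sign in all 14 alternatives (-0.72 to -0.64), as did those of Gimap5 (-0.79 to -0.49), Gimap8 (-0.71 to -0.33), Gimap9 (-0.29 to -0.064), Gimap6 (-0.25 to -0.12), Gimap3 (0.017 to 0.62) and Gimap4 (0.037 to 1.31). Gimap7 changed sign in 2 (0.092 without Ddx41+/+ replicate 2 and 0.068 without Ddx41+/- replicate 8) and reached -0.60 without Ddx41+/- replicate 7. The Gimap sum in Ddx41+/- stayed at 76.7% to 84.1% of Ddx41+/+ in the 10 alternatives run for it. Neighbours called numbered 1 with DESeq2 and with no filter, 0 within 0.5 Mb of the cluster, and 0 to 1 without single samples. The long-term stem cell list had 2 calls with DESeq2 and with no filter, 0 with limma-voom, median-of-ratios scaling or no robust estimation, and 0 to 1 without single samples. The lymphoid-primed list had 0 with library totals only, limma-voom or no robust estimation, and 0 to 1 without single samples, where the 1 was Flt3 and not Blnk. The neutrophil and monocyte list had 3 with DESeq2, 2 with no filter and 1 to 2 without single samples. The causes were not tested. No paired analysis was possible because the replicate numbers of the genotypes (1 to 4 and 6 to 8) do not overlap. Counts limit Gimap3, Gimap4 and Gimap7 most, and the unknown use of strand limits Gimap1.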
